A study of Spodoptera frugiperda with 12 samples.

Results

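In *Spodoptera frugiperda*, the fall armyworm, a moth whose caterpillars damage maize, 267 genomic loci of the embryo carried peaks of N6-methyladenosine (m6A) at 2 h after egg laying and none at 24 h. A locus here is a stretch of 1 strand in which neighbouring peaks lie less than 2000 bases apart, and the 6 peak lists of the study together gave 17120 of them. The 267 loci were chosen by the presence of peaks alone: a peak in at least 2 of the 3 lists of 2 h embryos and in 0 of the 3 lists of 24 h embryos. They were 1.56% of all loci and 2.37% of the 11282 loci that had a peak in at least 2 of the 2 h lists. The absence of 24 h peaks is thus how they were picked and not a result about them. Their scores, widths, positions and neighbours are given here, together with how often the absence held in lists that had no part in the choice.

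m6A is a methyl group placed on adenosines inside messenger RNA by a methyltransferase complex whose catalytic subunit in animals is METTL3. Reader proteins of the YTH family bind the mark, and it is known to act on the splicing, translation and decay of transcripts. The early animal embryo runs on RNA loaded into the egg by the mother. That store is cleared while transcription from the embryo's own genome starts, and in zebrafish the reader Ythdf2 takes part in the clearance. Peaks seen early and not later therefore come from transcripts whose mark, abundance or both may differ between the times, and a peak list without its input library cannot tell these apart.

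Pools of many embryos were taken 24 h and 2 h after oviposition from a laboratory colony whose larvae ate an artificial diet, with no other treatment, and each of the 2 groups has 3 captured samples with a peak list. The lists are called E24h-1 to E24h-3 and E2h-1 to E2h-3. In m6A capture sequencing, fragmented poly(A) RNA is pulled down with an antibody to the mark, and a peak is a stretch where the captured reads were enriched. The 6 uncaptured input samples were not analysed here. The lists held 51157 to 58161 peaks each, with the 24 h lists longer (56679 to 58161) than the 2 h lists (51157 to 55116). Read counts are not among their columns. The depth of a library is therefore unknown, and a missing peak can be a missing transcript. Whether the 3 samples of a time were separate collections of eggs is not in the labels, so p-values here cover the spread of these samples alone, and that spread may be technical. Genes are not named, because the sequences in the lists are not those of the annotation at hand, and positions use the lists' own sequence names and count from 1.

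Only a minority of the 267 loci had peaks in every 2 h list. In 96 loci all 3 lists had a peak. The other 171 had a peak in 2 lists: 77 in E2h-1 and E2h-2, 54 in E2h-2 and E2h-3, and 40 in E2h-1 and E2h-3. E2h-3, the shortest list, was therefore the one most often without a peak. Loci of the 2 h-only kind were rare beside their mirror image, the loci with a peak in at least 2 of the 24 h lists and in no 2 h list. There were 2119 of those, 12.4% of all loci and 16.0% of the 13259 loci with a peak in at least 2 of the 24 h lists. The number of 2 h-only loci depended on each 24 h list, since every one of them could remove a locus. Leaving out E24h-1, E24h-2 or E24h-3 gave 532, 473 and 435 loci. Leaving out E2h-1, E2h-2 or E2h-3, and then asking for a peak in both lists that were left, gave 161, 145 and 178.

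Just outside the rule lay loci that missed it by a single list. In 528 loci 1 of the 2 h lists and no 24 h list had a peak, and in 545 loci at least 2 of the 2 h lists and exactly 1 of the 24 h lists had one. The loci just inside, with 2 of the 2 h lists, had a median span of 125 bases and a strongest 2 h peak at a median score percentile of 22.4. For the 528 loci these medians were 50 bases and 14.4. For the 545 loci they were 878 bases and 31.5, and the single 24 h peak of these stood at a median percentile of 25.8 of its own list. The strongest peak is a maximum over 1, 2 or 3 lists and rises with their number, so no order is read from these percentiles. In the weakest list with a peak, the median percentile was 13.3 for the loci just inside, 14.4 for the 528 loci and 15.2 for the 545 loci. A minimum falls with the number of lists, so no order is read from these values either.

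The absence of 24 h peaks held only in part in lists that were not used to choose the loci. For each replicate number, loci were chosen on the other 4 lists, with a peak in both 2 h lists and in neither 24 h list. The left-out list of each time was then searched for a peak less than 2000 bases from a peak of the locus. With number 1 left out, 335 loci were chosen, and 51.9% of them had a peak in the left-out E24h-1 against 74.6% in the left-out E2h-1. With number 2 left out, the shares of 292 loci were 50.3% in E24h-2 and 74.0% in E2h-2. With number 3 left out, the shares of 312 loci were 42.9% in E24h-3 and 63.8% in E2h-3. Every 24 h share was below every 2 h share. The mean was 48.4% ± 4.80 in 24 h lists and 70.8% ± 6.08 in 2 h lists (SD, n = 3 each), a difference of -22.4 percentage points (exact two-sided permutation p = 0.1, the smallest value that 3 against 3 can give). For each replicate number both shares were read on the same loci, so they are paired, and this test ignores the pairing. Paired by number, the difference was the same (exact sign-flip permutation p = 0.25, the smallest that 3 pairs allow). The 3 sets of loci also overlap, so the 3 values of a time are not independent. No conclusion is therefore drawn from these p-values.

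Loci chosen as 24 h-only in the same way were separated far more by the left-out lists. Of these, 81.6% ± 4.16 had a peak in the left-out 24 h list and 9.53% ± 2.44 in the left-out 2 h list (SD, n = 3 each). The gap between the time of choice and the other time was 22.4 points for 2 h-only loci and 72.1 points for 24 h-only loci (exact two-sided permutation p = 0.1, 3 against 3, the smallest possible). This was the second of 2 tests, and Benjamini-Hochberg adjustment leaves both at 0.1. For each replicate number both gaps were read from the same left-out lists, so they are paired. The test of the gaps ignores this pairing and treats the values as independent, so no conclusion is drawn from its p-value. When a left-out peak had to overlap a peak of the locus by at least 1 base, a setting added after the data were seen, the shares of 2 h-only loci were 33.7% ± 2.51 in 24 h lists and 59.6% ± 4.38 in 2 h lists (SD, n = 3 each).

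**Figure D1:**
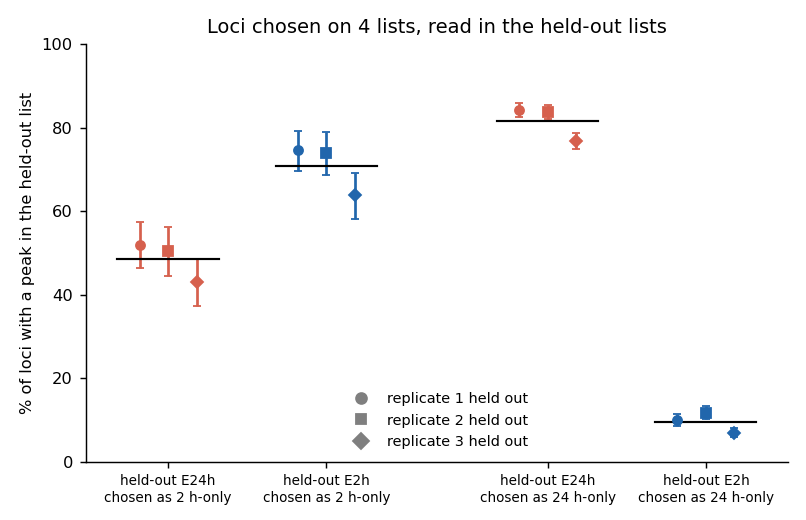
Share of loci with a peak in a list that was left out of the choice (y axis, percent), for loci chosen as 2 h-only (left pair) and as 24 h-only (right pair) on the other 4 lists; each symbol is 1 left-out list with its exact 95% binomial interval, and black lines are means. For 2 h-only loci the left-out 24 h lists reach 42.9% to 51.9% and the left-out 2 h lists 63.8% to 74.6%, while for 24 h-only loci the means are 81.6% and 9.53%.

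The peaks of the 2 h-only loci were few and weak by the deposited score. The score is the authors' value per peak, of unstated scale, and it is used here only as a percentile within its own list. The 267 loci held 264 peaks of E2h-1, 269 of E2h-2 and 219 of E2h-3, which was 0.494%, 0.488% and 0.428% of these lists. The mean share, 0.470%, was 1.04%, 0.890% and 0.822% when loci were chosen without E24h-1, E24h-2 or E24h-3. Their median percentile was 18.3 in E2h-1, 20.4 in E2h-2 and 19.0 in E2h-3, where a whole list has its median at the 50th percentile by construction. On average 64.2% ± 1.47 of the peaks (SD, n = 3 lists) were in the lowest 25% of their list and 9.84% ± 1.77 in the upper 50%. Low scores were not particular to these loci. In the 545 loci with 1 list at 24 h, 57.3% of the 2 h peaks were in the lowest 25%, with a mean median percentile of 20.9. In the 528 loci with a peak in 1 of the 2 h lists alone, these values were 82.7% and 14.4. In 118 of the 267 loci no peak of any 2 h list rose above the 25th percentile. In 32 loci the strongest peak was in the upper 50% of its list, and in 6 it was above the 90th percentile. Loci with peaks in all 3 lists had a median of 14.6 in their weakest list, against 13.3 for loci with peaks in 2 lists. The weakest of 3 lists tends to be lower than the weakest of 2, so these 2 values are not directly comparable.

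The share of 2 h loci without 24 h peaks fell with the strength of the locus. Among loci whose strongest 2 h peak was in the lower 50% of its list, 235 of 3014 (7.80%, exact 95% binomial interval 6.86% to 8.81%) had no 24 h peak. Among loci whose strongest 2 h peak was in the upper 50%, 32 of 8268 (0.387%, interval 0.265% to 0.546%) had none. For 24 h loci without 2 h peaks the same shares were 39.1% of 3058 and 9.06% of 10201. In each of the 10 score classes the share was lower for 2 h loci than for 24 h loci, 12.6% against 49.0% in the weakest and 0.204% against 3.87% in the strongest. The share fell with the number of peaks as well. Among loci with peaks in at least 2 of the 2 h lists, it was 10.0% of the 1934 whose richest list had 1 peak, 3.14% of the 1911 with 2, 0.708% of the 1412 with 3 and 0.277% of the 1082 with 4. Of the 4943 loci with 5 or more peaks in a 2 h list, 0 were without 24 h peaks. At 24 h, 384 of the 5397 loci with 5 or more peaks in a list (7.12%) were without 2 h peaks. Loci were joined over the peaks of both times, so 24 h peaks can lengthen a locus and bring in more 2 h peaks. The median span was 3194 bases for 2 h loci with 24 h peaks and 200 for 2 h-only loci. The fall with peak number is therefore partly built into the choice, and no conclusion is drawn from it. The strongest peak is a maximum over the peaks of a locus, so the fall with strength can share this limit. The intervals cover counting error only, and neighbouring loci are not independent.

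**Figure D2:**
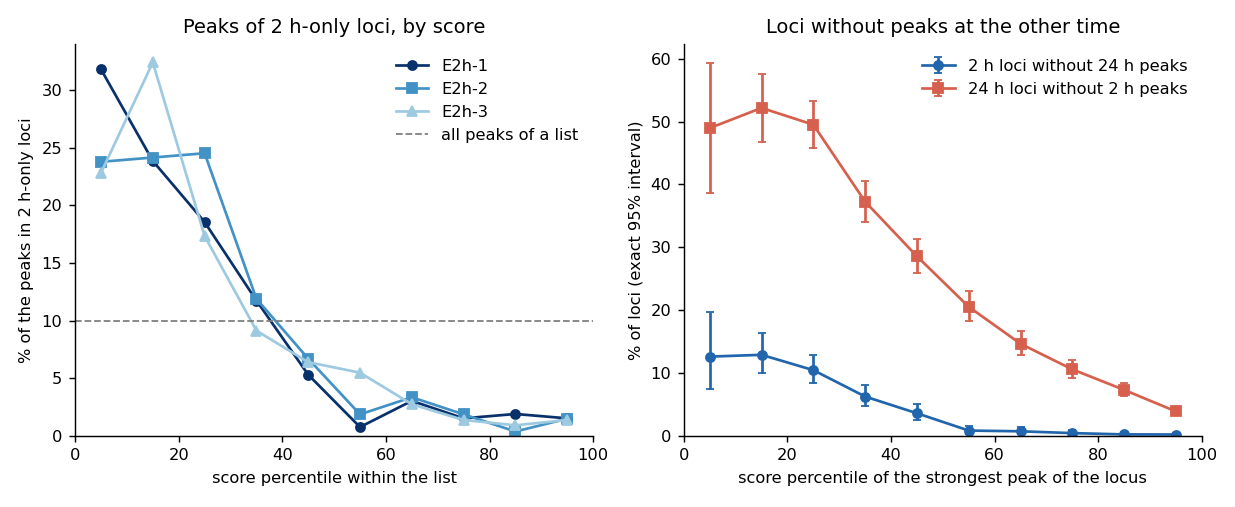
Left, the peaks of the 2 h-only loci by score percentile within each 2 h list (x axis) as a percentage of those peaks (y axis), with a dashed line at the 10% that all peaks of a list would give. Right, the share of loci without peaks at the other time (y axis, percent, exact 95% binomial intervals) by the percentile of their strongest peak, which at 2 h goes from 12.6% in the weakest class to 0.204% in the strongest and at 24 h from 49.0% to 3.87%.

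The few strong 2 h-only loci were mostly short and mostly stood close to loci that carried peaks at both times. The 32 loci whose strongest peak was in the upper 50% of its list had a median span of 75 bases, against 200 for all 267. Some were long, and the locus on the minus strand of NC_049726.1 from 6218149 to 6233540 spanned 15392 bases. Among loci with a peak in all 3 of the 2 h lists, the one whose weakest list was strongest lay on the minus strand of NC_049716.1 from 7289959 to 7290033. It had 1 peak of 50 to 75 bases in each 2 h list, at percentiles 92.7, 95.7 and 94.8 in E2h-1, E2h-2 and E2h-3. Its nearest 24 h locus began 2926 bases downstream and was richly marked at both times, with 10, 11 and 12 peaks in the 24 h lists and 11, 10 and 11 in the 2 h lists. The strongest peak of that neighbour was at percentile 96.5 to 97.4 in the 24 h lists and 97.4 to 98.3 in the 2 h lists. What was absent at 24 h was therefore a single narrow peak beside a group of strong peaks called in all 6 lists.

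The next 4 loci in this order had a similar form. On the plus strand of NC_049713.1, from 2830781 to 2830805, all 3 lists of 2 h called the identical 25 bases, at percentiles 88.0, 91.1 and 87.6. A locus of all 6 lists lay 2424 bases downstream and another 24 h locus 6077 bases upstream. On the plus strand of NC_049725.1, from 11492259 to 11492283, the 3 lists again called 1 identical peak of 25 bases, at percentiles 82.9, 77.7 and 72.5, with a locus of all 6 lists 3135 bases upstream. The locus on the minus strand of NC_049731.1 from 10918828 to 10918977 had 1, 2 and 2 peaks, the strongest at percentiles 77.6, 69.4 and 71.2, and its neighbour lay 2075 bases upstream. That neighbour was stronger in the 24 h lists, at percentiles 77.2 to 88.9, than in the 2 h lists, at 42.1 to 48.0. The fifth, on the plus strand of NC_049722.1 from 7291973 to 7292097, had 2, 1 and 2 peaks of 25 bases at percentiles 69.2, 68.7 and 69.2, lay 3483 bases downstream of a locus of all 6 lists and was overlapped by a 24 h locus of the opposite strand.

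Of the 32 loci whose strongest peak was in the upper 50%, 31 lay less than 10000 bases from a 24 h locus of the same strand, at a median distance of 2673.5 bases, and for 25 of the 32 that neighbour had peaks in all 6 lists, against 114 of all 267. The 6 loci above the 90th percentile lay at most 3923 bases from a 24 h locus, and 5 of the 6 neighbours had peaks in all 6 lists. Of the 41 loci at 10000 to 50000 bases 1 had a strongest peak in the upper 50% of its list, and of the 17 loci farther away 0 had.

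**Figure D3:**
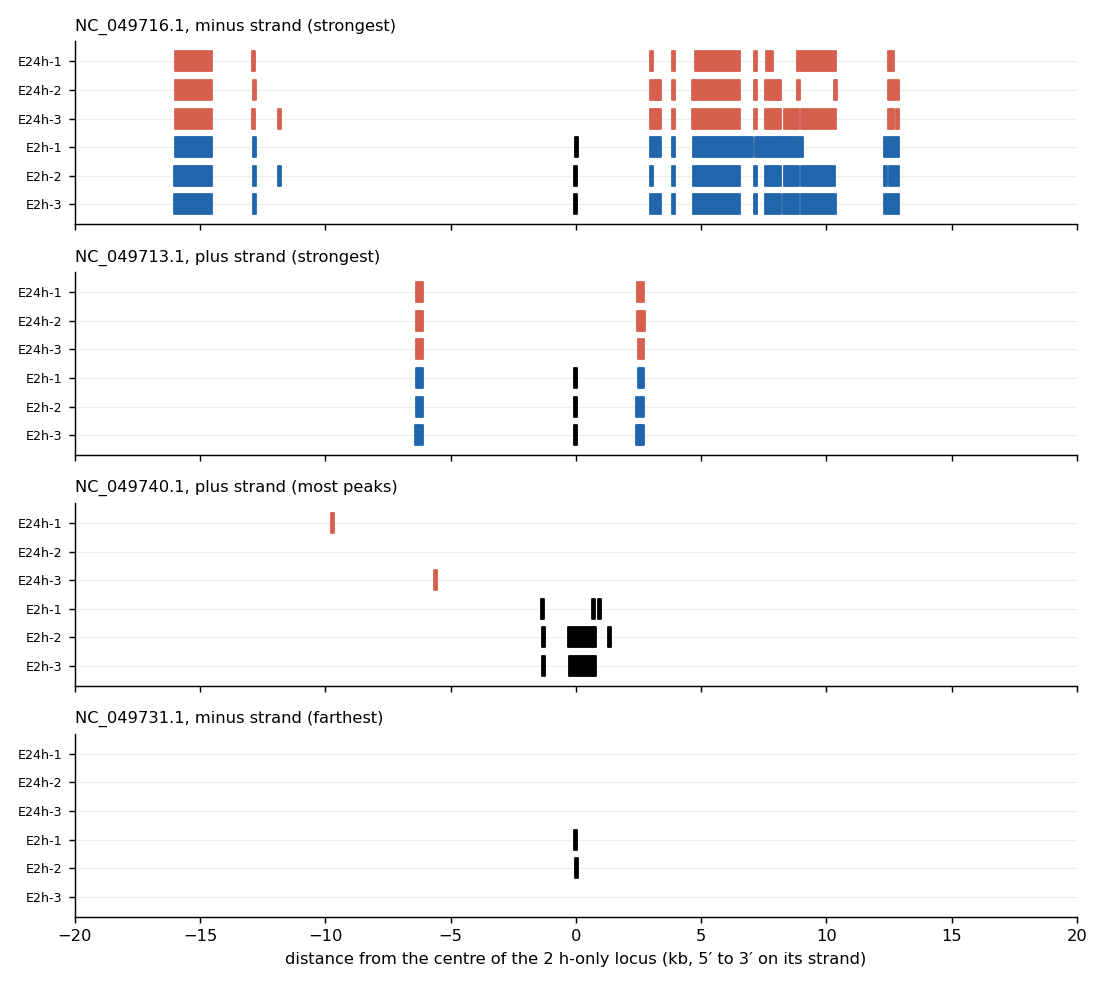
Peaks of the 6 lists (rows, 24 h above 2 h) around 4 of the named 2 h-only loci, drawn by distance from the centre of the locus in kb along its strand; black bars are peaks of the 2 h-only locus, orange and blue bars other peaks of the same strand at 24 h and 2 h, and the shortest bars are widened so that they can be seen. The loci of the upper panels are single narrow peaks with marked loci on either side in all 6 lists, the locus with the most peaks has 2 isolated 24 h peaks upstream, and the farthest locus has no other peak within 20 kb.

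The loci with the most peaks did not reach the scores of those 5. In 194 of the 267 loci no 2 h list had more than 1 peak, in 60 the most was 2, and in 13 it was 3 or 4. The most peaks were in a plus-strand locus of NC_049740.1, positions 6634241 to 6636928, with 3, 4 and 3 in E2h-1, E2h-2 and E2h-3 and strongest percentiles of 11.3, 23.7 and 19.4. Its first peak overlapped across the 3 lists, and E2h-2 and E2h-3 shared a second peak of 998 and 948 bases that E2h-1 lacked. The nearest 24 h locus, 4231 bases upstream, was 1 peak of 25 bases in E24h-3 at percentile 10.1. On the same strand, the locus from 7146141 to 7154214 had 3, 4 and 2 peaks at strongest percentiles of 22.9, 33.1 and 24.0. Its neighbour 8008 bases downstream had 0, 4 and 1 peaks in the 24 h lists and 10, 5 and 8 in the 2 h lists, so each 24 h list had fewer peaks there than any 2 h list.

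Another 3 loci were named for their number of peaks. The plus-strand locus of NC_049720.1 from 4722892 to 4724106 had 4, 2 and 2 peaks at strongest percentiles of 15.4, 11.9 and 27.2. On the minus strand of NC_049722.1, from 15788753 to 15791560, there were 2 peaks per 2 h list, at strongest percentiles of 35.2, 29.1 and 36.2, and the longer of the 2 spanned 1440, 1415 and 1390 bases. Its neighbour 3595 bases downstream had 5, 3 and 1 peaks in the 24 h lists against 5, 7 and 6 in the 2 h lists. The minus-strand locus of NC_049724.1 from 1193980 to 1195546 also had 2 per list, at strongest percentiles of 32.5, 43.6 and 21.9. Its neighbour 2987 bases downstream had 0, 2 and 2 peaks in the 24 h lists and 2, 1 and 1 in the 2 h lists. In all, 7 loci had no 2 h list with fewer than 2 peaks, and they lay 2987 to 8008 bases from a 24 h locus.

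Most of the 267 loci were small, and a minority reached over long genomic stretches. The median span was 200 bases, with quartiles of 75 and 1258 bases and a range of 25 to 32888 bases. The median was 496.5 bases without E24h-1, 325 without E24h-2, 225 without E24h-3 and 175 to 225 without a 2 h list. In 105 loci the span was at most 100 bases (39.3%), against 9.96% of the 24 h-only loci and 14.5% of the 518 loci that had exactly 1 peak in each of the 6 lists. A span covers the peaks of all lists, so it can grow with the number of lists that have one. The share was 22.9% for 2 h-only loci of 3 lists, 48.5% for those of 2 lists and 78.8% for the 528 loci of 1 list. The sets are therefore not directly comparable in span. Loci of all 3 lists at 2 h had a median span of 353.5 bases and those of 2 lists 125 bases. The longest locus lay on the plus strand of NC_049729.1 from 900188 to 933075, and in each 2 h list a single peak ran over nearly all of it, with lengths of 32763, 32838 and 32788 bases at percentiles 8.30, 33.7 and 25.2. Such spans are genomic extents that can include introns. The second, on the plus strand of NC_049713.1 from 106737 to 133137, was long through 1 peak of 25427 bases in E2h-1, while E2h-2 had a peak of 25 bases just beyond that peak and E2h-3 had none. The third, on the minus strand of NC_049714.1 from 5715040 to 5737079, was spanned by 1 peak of 22040 bases in E2h-2, and E2h-1 and E2h-3 had a peak of 50 bases at one end. All 10 loci over 10000 bases held a single peak that long in at least 1 list.

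Taken over all scores, both narrow and very wide peaks were more frequent among them than in the whole lists. Widths of at most 75 bases made up 73.3% ± 2.22 of the peaks in the 2 h-only loci and 63.4% ± 0.474 of all 2 h peaks (SD, n = 3 lists each). Widths of 76 to 200 bases made up 5.87% ± 1.56 against 19.2% ± 0.301, and widths over 1000 bases 10.1% ± 0.336 against 4.46% ± 0.162. Frequent narrow and very wide peaks were not particular to these loci. In the 545 loci with 1 list at 24 h, 73.2% of the 2 h peaks were at most 75 bases wide and 8.29% over 1000 bases. In the 528 loci with a peak in 1 of the 2 h lists alone, these shares were 81.8% and 7.85%. Weak peaks are mostly narrow in the lists as a whole, so the widths were also read within score classes. For widths of 76 to 200 bases the difference was not seen between the 25th and 50th percentiles, where they made up 16.7% ± 3.89 of the peaks in 2 h-only loci and 17.3% ± 0.706 of all 2 h peaks. Between the 50th and 75th percentiles the shares were 17.1% ± 2.43 against 27.1% ± 0.290. In the lowest 25% by score, 79.8% ± 2.12 of the peaks in 2 h-only loci and 88.9% ± 0.506 of all 2 h peaks were at most 75 bases wide, and 8.40% ± 1.96 against 2.91% ± 0.148 were over 1000 bases. In the highest 25% every peak of the 2 h-only loci was at most 75 bases wide, about 8.33 ± 3.51 peaks per list, while 38.5% ± 0.447 of all 2 h peaks were (SD, n = 3 lists each). Narrow peaks were thus less frequent than in the whole list in the lowest score class and more frequent in the highest. The 545 and the 528 loci were not read within score classes.

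Where 2 of the 2 h lists had a peak in the same locus, the peaks mostly coincided, which the rule did not require. Over the 3 pairs of lists there were 459 such cases, and in 345 of them (75.2%) peaks of both lists shared at least 1 base. The shares were 72.3% for E2h-1 and E2h-2, 78.7% for E2h-1 and E2h-3 and 75.3% for E2h-2 and E2h-3. Identical start and end occurred in 108 cases (23.5%). In the 24 h-only loci, pairs of 24 h lists had overlapping peaks in 70.3% of 4623 cases and identical ones in 17.0%. In the 518 loci with 1 peak in every list, pairs of 2 h lists had overlapping peaks in 99.0% of 1554 cases and identical ones in 39.7%. Scores agreed less than in those constant loci as well. The percentile of the strongest peak in a pair of lists had a Spearman rho of 0.437 to 0.553 and a Pearson r of 0.719 to 0.759 over 136 to 173 of the 2 h-only loci, against rho of 0.969 to 0.973 and r of 0.930 to 0.933 over the 518 constant loci. These are descriptions across loci of the same lists, and the scores of the 2 h-only loci cover a narrower range.

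The 2 h-only loci lay close to same-strand loci that had peaks at 24 h. The joining of peaks sets a floor of 2000 bases on this distance. The median was 4859 bases, with quartiles of 2894.5 and 8889 bases, and 209 of the 267 loci (78.3%) had a 24 h locus less than 10000 bases away. The 24 h-only loci were much farther from the nearest locus with 2 h peaks, with a median of 24453 bases and 30.8% under 10000 bases. The constant loci of 1 peak stood at a median of 4168 bases from another 24 h locus, with 79.2% under 10000 bases. The median of the 2 h-only loci was therefore nearer to that of the constant loci than to that of the 24 h-only loci, and no test of this was made. To the nearest locus with a peak in all 3 of the 24 h lists the median was 9923 bases.

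**Figure D4:**
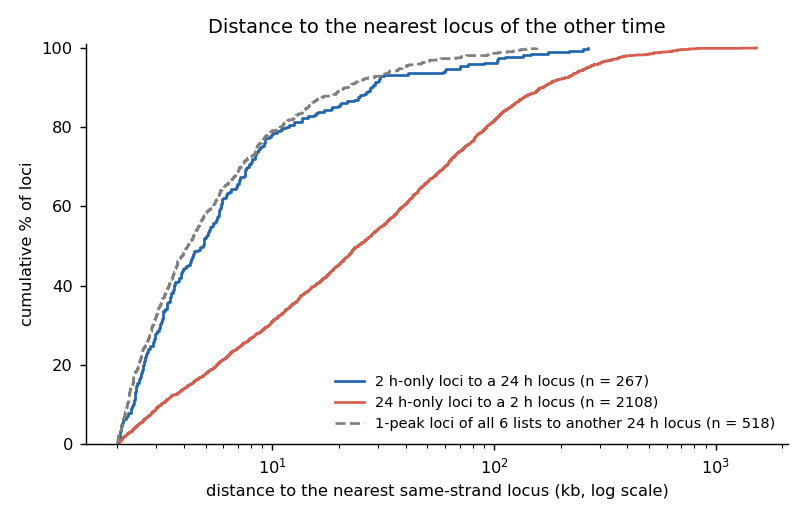
Cumulative percentage of loci (y axis) by distance to the nearest locus of the same strand (x axis, kb, log scale), for 267 2 h-only loci to a 24 h locus, 2108 24 h-only loci to a 2 h locus and 518 loci of 1 constant peak to another 24 h locus. The curve of the 2 h-only loci runs near that of the constant loci, with medians of 4859 and 4168 bases, and left of the 24 h-only loci, with a median of 24453 bases.

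Most neighbours also had 2 h peaks, as did most 24 h loci in general. The nearest 24 h locus also had a 2 h peak for 216 of the 267 loci (80.9%), and it was marked in every 2 h list for 155 (58.1%) and in all 6 lists for 114 (42.7%). Of all 16325 loci with 24 h peaks, 74.2% had a 2 h peak, 60.7% were marked in every 2 h list and 54.8% in all 6 lists. No test of these differences was made. Among the 261 loci with a 24 h locus on both sides, the nearer one lay downstream in 155 (59.4%), against 69.2% of the constant loci, 56.8% of the 24 h-only loci and 48.8% of the loci with peaks in at least 2 of the 2 h lists and at 24 h. The 3 nearest were on the minus strand of NC_049714.1 from 7294222 to 7294346 (2004 bases), NC_049719.1 from 121233 to 123286 (2005 bases) and NC_049727.1 from 6157919 to 6158139 (2022 bases). Each had a peak in all 3 of the 2 h lists, and the distances were barely above the joining distance, so their place among the 2 h-only loci hung on that setting.

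At least 50000 bases from any 24 h locus of their strand lay 17 loci (6.37%), 10 of them at least 100000 bases away. Distances this long to another 24 h locus occurred in 5.53% of the 11015 loci with peaks in at least 2 of the 2 h lists and at 24 h. The share was 3.67% of the constant loci and 7.20% of the 528 loci with a peak in 1 of the 2 h lists alone. The peaks of the 17 loci were weak, as were those of the 2 h-only loci in general. Of the 17, 7 had a peak in all 3 lists. Their strongest peak had a median percentile of 20.4 and reached at most 44.7, against a median of 27.2 for the 209 loci under 10000 bases. They averaged 1.02 peaks per list, with a maximum of 1.67, against an average of 0.928 for those 209 loci. The farthest lay on the minus strand of NC_049731.1 from 3037690 to 3037789, 265533 bases from a 24 h locus, with 1 peak in E2h-1 at percentile 39.0, 1 in E2h-2 at percentile 32.0 and none in E2h-3. The next were the minus-strand locus of NC_049726.1 from 33388 to 33462 (250829 bases; percentiles 5.46 and 20.4, with no peak in E2h-3) and the plus-strand locus of NC_049730.1 from 14052374 to 14053281. The last was 218756 bases from a 24 h locus, with 3 peaks in E2h-1, 1 in E2h-2 and none in E2h-3, at strongest percentiles of 7.23 and 4.20. All 3 of the farthest loci thus lacked a peak in E2h-3.

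The 267 loci were spread over 34 of the 78 sequences that had 2 h loci. The 31 sequences with at least 100 such loci held 264 of them, from 3 to 16 each with a median of 8, and on these 2.41% of 10944 loci were 2 h-only. The share was highest on NC_049737.1, with 14 of 250 loci (5.60%, exact 95% binomial interval 3.10% to 9.22%), 9 of them with peaks in all 3 lists, and on NC_049740.1, with 13 of 263 (4.94%, 2.66% to 8.30%). It was lowest on NC_049718.1, with 4 of 488 (0.820%, 0.224% to 2.09%). For these 3 sequences the interval left out the joint 2.41%, and for the other 28 it did not. Among 31 intervals at 95%, some can leave out the joint share through counting error alone. NC_049740.1 also had the lowest share of 24 h-only loci, 24 of 267 (8.99%), but on NC_049737.1 that share was 66 of 320 (20.6%). Across the 31 sequences the share of 2 h-only loci and that of 24 h-only loci had a Pearson r of -0.198 and a Spearman rho of -0.261, both read from the same 6 lists. The intervals cover counting error only, and no test of the spread was made.

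**Figure D5:**
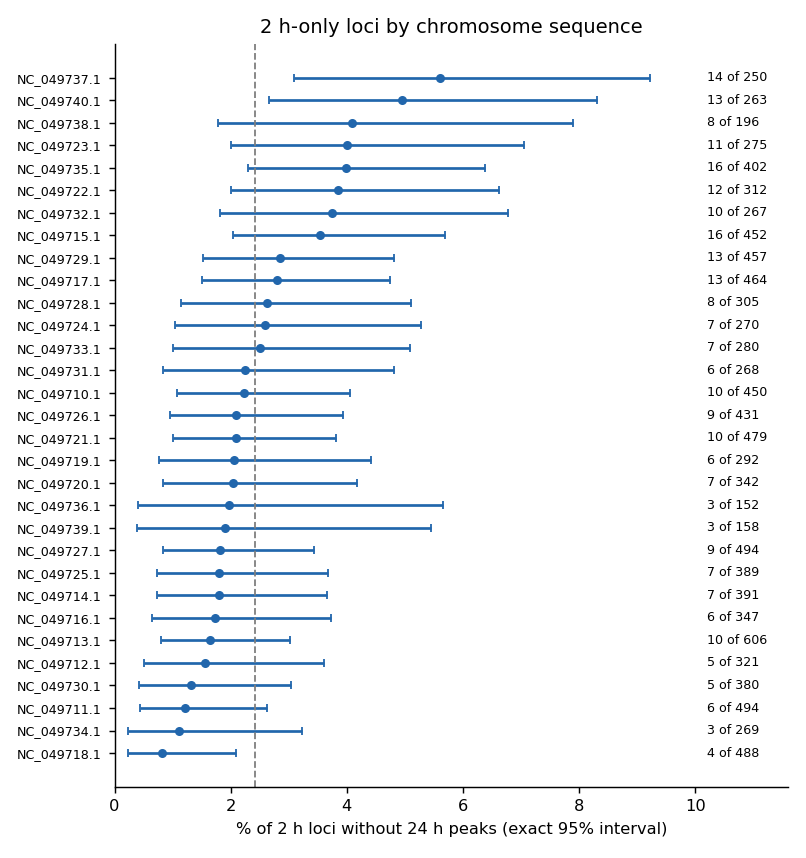
Share of 2 h loci without 24 h peaks (x axis, percent, exact 95% binomial intervals) on each of the 31 sequences with at least 100 such loci, with the counts at the right and a dashed line at the joint 2.41%. The intervals of NC_049737.1 and NC_049740.1 lie above the line and that of NC_049718.1 lies below it.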

How the data were processed

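Peak lists of the 6 captured samples (E24h and E2h, 3 each) were used. HOMER, HISAT2 2.1.0, Bowtie2 2.2.5 and fastp 0.20.0 are named in the submitters' processing notes without their roles. Which program called the peaks, at which threshold and on which genome build, was, however, not given in the sources used here. Lists were deposited 1 per sample. The deposited score per peak has no stated scale, is infinite in 0.930% to 1.50% of peaks, and was turned into a percentile within its list, ties sharing the mean rank. Peaks of 1 strand with a gap under 2000 bases formed a locus. Distances are the bases between 2 loci.

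The members, settings and comparisons were chosen with earlier results of these data known. Named loci were the 5 that had the highest smallest percentile among loci present in all 3 lists, the 5 with most peaks in the 2 h list that had fewest (ties by mean peaks per list), the 3 longest, and the 3 nearest to and 3 farthest from a 24 h locus. Left-out lists were compared with exact two-sided permutation tests, and intervals are exact Clopper-Pearson intervals. Joining, counting and the left-out shares were tested on simulated data. The scripts ran in Python 3.11.15 with scipy 1.17.1, pandas 2.3.3, numpy 2.4.6 and, for figures, matplotlib 3.10.9. Joining distance, strand, list length, peak strength and width, the number of lists and each list in turn were varied. Input samples were not analysed here.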

Additional observations from a re-analysis of the deposited data

How the results depend on the processing

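The number of 2 h-only loci, 267, was set mostly by the joining distance and by how many lists had to agree. It was 1018 with 500 bases, 56 with 10000 bases and 96 with a peak in all 3 of the 2 h lists. When peaks wider than 1000 bases were left out of all lists before joining, it was 425. Leaving out 1 list gave 145 to 532. Without strand (224), in the stronger 50% of each list (321), at equal list length (366) and without 75-base peaks (380) it stayed within 1.5 times. In the stronger 50% only 25 of the 267 loci were among the 321, and with 10000 bases 55 of the 267 remained. The 24 h-only loci were counted as well in the settings of joining distance, strand, strength, list length, peaks over 1000 bases and 75-base peaks. They exceeded the 2 h-only loci in each of these, with the smallest ratio at 500 bases (3729 to 1018). The median span ranged from 125 to 592 bases and the share of 2 h peaks in these loci from 0.110% to 1.70% over all settings.

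The median of the lowest percentile, 13.6, was 15.4 with 500 bases, 11.8 with 10000 bases, 55.9 in the stronger 50% and 13.6 to 16.7 with 1 list left out, and the median over all peaks of the loci was 19.2. The median distance, 4859 bases, was 1083.5 with 500 bases, 26092 with 10000 bases, 4124.5 without strand, 5916 in the stronger 50%, 5144 without 75-base peaks, 4370.5 with a peak in all 3 lists, 9923 to a locus of all 3 of the 24 h lists and 4231 to 5022 with 1 list left out. The floor on this distance is the joining distance itself.

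The left-out difference of -22.4 points ranged from -35.0 (stronger 50%) to -20.9 (strand ignored), and from -23.2 to -21.8 with 1 number left out. With the replicate block it was -22.4 (exact sign-flip p = 0.25, the smallest that 3 pairs allow). The labels do not say that same-numbered lists belong together, but the left-out shares of a number were read on the same loci. Deviations in peaks per locus correlated by 0.0219, 0.0355 and 0.0406 for same-numbered lists of the 2 times. For lists of different number the values were all negative, from -0.0347 to -0.000822. This difference was not tested. Of the 19 named loci, 5 were still 2 h-only with 10000 bases, 5 in the stronger 50% (those named for strength, which this setting cannot remove), 12 without strand, and 15 to 19 in the other settings. Read depth is unknown, so no setting can correct for it.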

Other observations

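Peaks of the opposite strand came near some of the 2 h-only loci. In 7 of the 267 a 24 h locus of the opposite strand overlapped the locus, and in 43 it lay less than 2000 bases away or overlapped. The loci were on the plus strand in 141 cases and on the minus strand in 126. Another 2 h-only locus lay less than 10000 bases away on the same strand for 22 of the 267. The counts by opposite strand and by other 2 h-only loci were not made for other sets of loci. They are therefore not read as traits of the 2 h-only loci.

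Among the 528 loci with a peak in 1 of the 2 h lists and no 24 h list, E2h-2 had 221, E2h-1 204 and E2h-3 103. By distance, the 209 loci under 10000 bases from a 24 h locus, the 41 between and the 17 at 50000 bases or more had peaks in all 3 lists in 34.4%, 41.5% and 41.2% of cases, a strongest peak in the upper 50% of its list in 14.8%, 2.44% and 0%, and a median span of 175, 175 and 450 bases.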
